A study of Homo sapiens with 4 samples.

Results

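To examine the machinery that builds ribosomes in colorectal cancer cells treated with siRNA against KIF26B, 46 genes were followed: MYC, the RNA polymerase I genes and the genes of nucleolar ribosome assembly. The members were taken from a list of gene symbols that was matched to the Ensembl gene identifiers of the files through the GENCODE annotation. Of the 46 genes, 45 had an identifier among the 58735 in the files, and 44 passed the filter for testing out of 14523 genes that passed in all. BOP1 had no identifier in common with the files and was not analysed here. NOP2, a 28S rRNA methyltransferase, had 0.750 and 0.683 FPKM in the control libraries and 0.449 and 0.401 FPKM in the libraries labelled KIF26B siRNA, and so lay under the filter of a mean of 1 FPKM. In the annotation 54.4% of the exon bases of NOP2 overlap another gene, so its value may miss reads, which was not tested. The FPKM unit divides fragments by the length of a gene's exons and by the depth of the library, so levels can be compared between genes.

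RNA was sequenced from HCT116, an established line of human colorectal carcinoma cells, 48 h after transfection. A pair of libraries came from cells given a control siRNA (replicates 1 and 2) and a pair from cells given siRNA against KIF26B, a kinesin motor protein gene (replicates 1 and 2). More than 1 siRNA against KIF26B was used in the study, and neither the labels nor the text of the paper says which one each library received. The value columns of these libraries are headed K_KD1_2 and K_KD2 in the files, so that replicates 1 and 2 may stand for different knockdowns. The paper makes a general statement that its experiments had biological replicates, but no source used here says that these libraries came from separate cultures, so the p-values measure the spread between these libraries, which may be technical.

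The nucleolus is the site where RNA polymerase I transcribes the long precursor of the 18S, 5.8S and 28S rRNAs. Small nucleolar ribonucleoproteins (snoRNPs) guide the chemical modification of this precursor, and many assembly factors cut it and fold it with ribosomal proteins into the small and the large subunit. MYC is a transcription factor that pairs with MAX on the E-box CACGTG and is known to activate many genes of this machinery, and its own transcription is a classic output of the Wnt pathway in the colonic epithelium. The libraries were made from poly(A) RNA and give the mRNA of these proteins, not rRNA.

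The E-box is shown first, since it is the sequence through which MYC-MAX is known to reach such genes. RefSeq promoter windows, from 250 bases before to 50 bases after an annotated start on GRCh38.p14, were held in the reference used here for 36 of the 46 members, with 45 starts between them. CACGTG, which reads the same on both strands, lay in at least 1 window of 16 of these 36 genes. Of the 45 member windows 35.6% held it, against 7.26% of all 35116 windows and 9.48% of the 13866 windows of genes that were tested. The median GC content was 64.0% in the member windows and 65.3% in the windows of tested genes. In 15 of the 16 genes a copy began within 50 bases of the start (41.7% of the 36 genes, against 5.41% of the 9601 tested genes with a window). The copy of LYAR began at position -64 from the start, and NOP10 had a second copy at -170. A match of these letters is a description of the window and not evidence of binding.

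**Figure D1:**
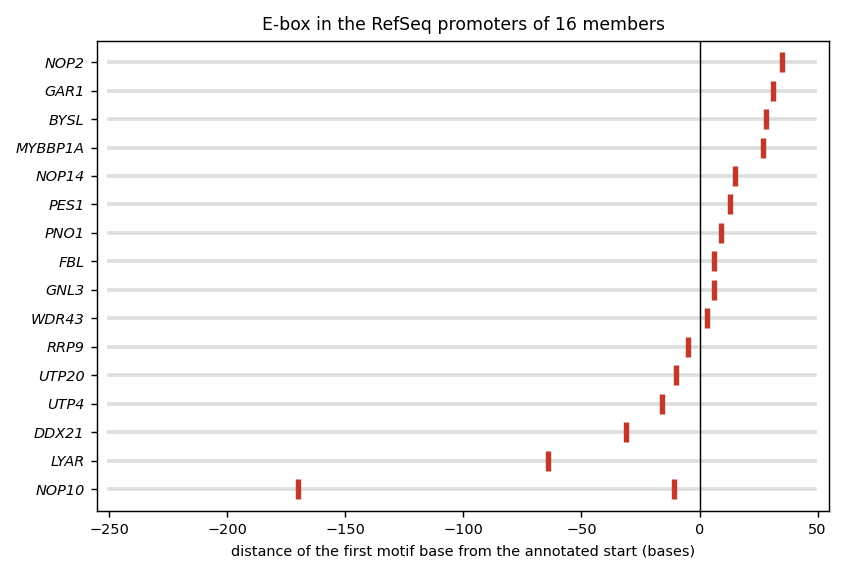
Position of the first base of each CACGTG, in bases from the annotated start (0), in the promoter windows of the 16 members that hold it. Each grey line is a window from 250 bases before to 50 bases after the start, and all but the copy of LYAR and the outer copy of NOP10 lie within 50 bases of the start.

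For each role that has one, the window of the E-box member with the highest mean FPKM is printed from 90 bases before to 30 bases after the start, 5' to 3' on the strand of the gene, with CACGTG in capitals. FBL (chr19:39846350-39846469, minus strand) stands for the box C/D snoRNP, NOP10 (chr15:34343107-34343226, minus strand) for the box H/ACA snoRNP and GNL3 (chr3:52685942-52686061, plus strand) for the abundant nucleolar proteins. DDX21 (chr10:68956557-68956676, plus strand), RRP9 (chr3:51941875-51941994, minus strand) and PES1 (chr22:30591881-30592000, minus strand) stand for RNA polymerase I, small subunit assembly and large subunit assembly. GNL3 and DDX21 have 2 annotated starts each, and the motif lies at the one shown.
FBL: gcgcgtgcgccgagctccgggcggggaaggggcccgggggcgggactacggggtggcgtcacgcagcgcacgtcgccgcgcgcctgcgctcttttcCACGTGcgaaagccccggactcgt
NOP10: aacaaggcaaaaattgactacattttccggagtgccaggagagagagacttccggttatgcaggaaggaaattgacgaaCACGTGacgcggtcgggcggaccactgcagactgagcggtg
GNL3: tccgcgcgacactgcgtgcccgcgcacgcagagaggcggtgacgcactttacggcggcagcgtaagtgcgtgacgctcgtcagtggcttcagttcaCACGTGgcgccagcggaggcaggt
DDX21: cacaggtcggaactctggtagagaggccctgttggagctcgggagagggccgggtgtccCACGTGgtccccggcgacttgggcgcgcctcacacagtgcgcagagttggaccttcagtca
RRP9: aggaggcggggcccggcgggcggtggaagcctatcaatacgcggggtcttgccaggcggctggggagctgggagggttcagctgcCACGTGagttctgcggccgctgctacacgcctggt
PES1: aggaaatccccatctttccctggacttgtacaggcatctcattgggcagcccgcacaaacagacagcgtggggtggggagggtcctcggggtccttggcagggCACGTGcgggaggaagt

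Of the 44 tested members, 8 differed in expression at an unadjusted p below 0.05, described further on, as did 2385 of all 14523 genes tested. Of these 8 members, 4 had a promoter window: DKC1 (chrX:154762774-154762893, plus strand), RRN3 (chr16:15094306-15094425, minus strand, the first of 2 annotated starts), NOB1 (chr16:69754897-69755016, minus strand) and NOP16 (chr5:176388569-176388688, minus strand). CACGTG was in none of their full windows, which says only that these letters are not in them. They are shown over the same 120 bases for comparison with the set above.
DKC1: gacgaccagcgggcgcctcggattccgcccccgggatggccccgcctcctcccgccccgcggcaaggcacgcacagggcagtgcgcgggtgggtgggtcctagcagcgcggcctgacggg
RRN3: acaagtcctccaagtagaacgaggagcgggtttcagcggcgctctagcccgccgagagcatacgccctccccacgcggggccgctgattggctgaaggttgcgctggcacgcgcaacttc
NOB1: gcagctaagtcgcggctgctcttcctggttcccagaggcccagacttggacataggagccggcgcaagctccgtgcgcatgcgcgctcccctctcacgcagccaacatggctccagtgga
NOP16: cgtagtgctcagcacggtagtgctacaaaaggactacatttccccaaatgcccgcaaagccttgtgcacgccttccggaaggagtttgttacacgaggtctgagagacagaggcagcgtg

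The tested members were well expressed. Their mean over the 4 libraries ran from 3.54 FPKM for PPAN to 308 FPKM for NPM1, with a median of 18.8 FPKM against 5.62 FPKM over all genes tested. NPM1, the most abundant, encodes nucleophosmin, a histone and ribosome chaperone of the outer nucleolus. After NPM1 came NCL (nucleolin), MYC, FBL and NOP10. The recovered reads behind a member's value ran from 158 in 1 library for PPAN to 31111 for NPM1.

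**Figure D2:**
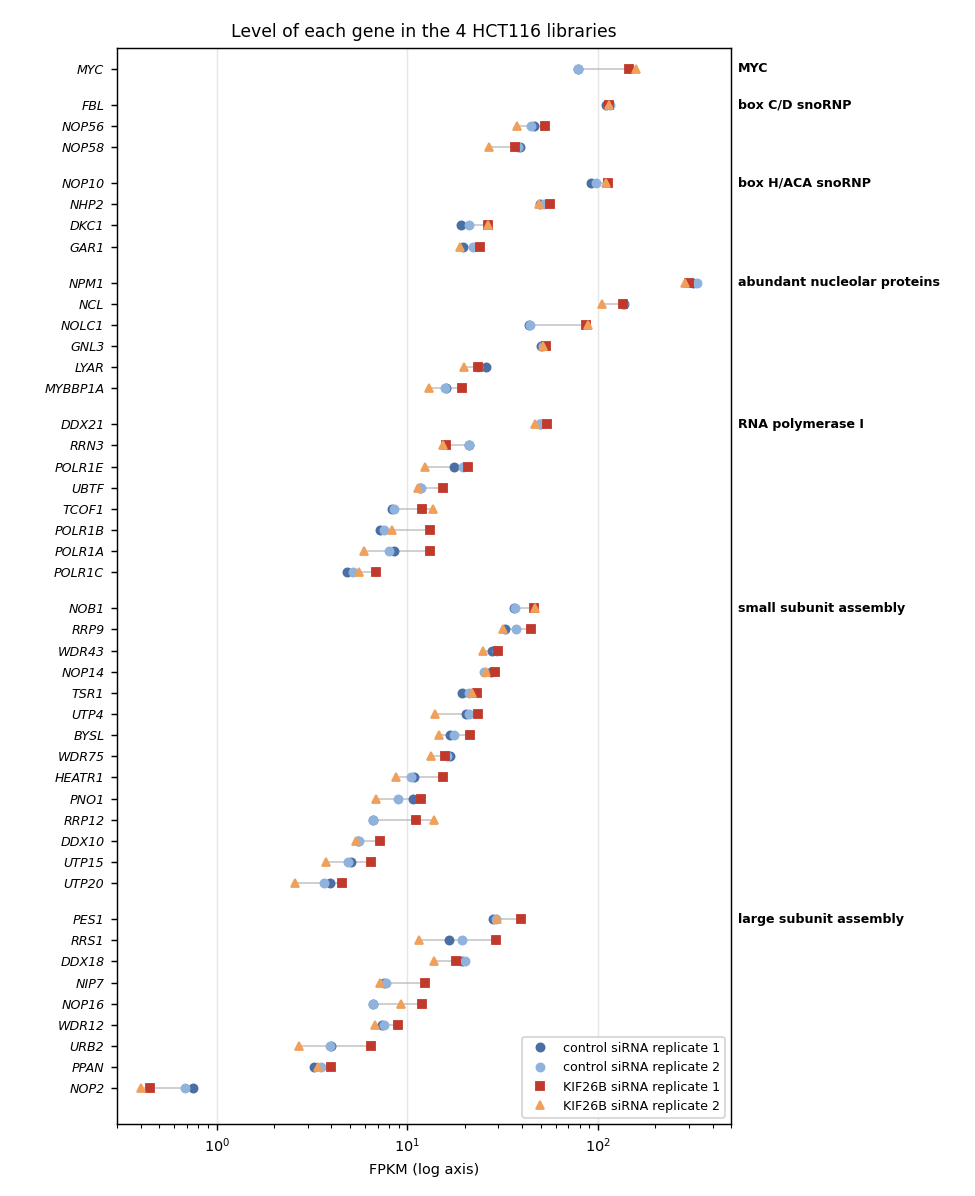
FPKM on a log axis of the 45 members found in the files, 1 row per gene grouped by role and ordered by mean, with 1 point for each of the 4 libraries. Points of the control libraries nearly coincide in most rows, whereas the libraries labelled KIF26B siRNA replicate 1 (squares) and replicate 2 (triangles) often lie on opposite sides of them.

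The silencing itself was hard to see in these libraries. KIF26B was measured at 0.110 and 0.205 FPKM (31 and 73 recovered reads) in the control libraries, and at 0.140 and 0.0307 FPKM (43 and 8 reads) in the libraries labelled KIF26B siRNA replicates 1 and 2. The library labelled KIF26B siRNA replicate 1 lay between the controls, and the one labelled replicate 2 lay below both. KIF26B lay under the filter for testing, so it was taken from fits without that filter, with p adjusted over the genes in them. The log2 difference, labelled KIF26B siRNA minus control on the log2(FPKM + 1) scale used throughout, was -0.09 (SE 0.09, limma adjusted p = 0.775). At such low levels the pseudocount of 1 holds this value near 0. It was -0.52 with a pseudocount of 0.1 and -1.13 (SE 0.66, adjusted p = 0.554) with limma-voom on the recovered reads. Of 8 markers of colonic epithelium, EPCAM, KRT8, KRT18, KRT19, CDH1 and CDX2 were at 1 FPKM or more in every library and VIL1 and KRT20 were below 1 FPKM in all. Of 7 markers of other cell types found in the files, COL1A1 was at 4.74 to 8.69 FPKM and the other 6 were under 1 FPKM in all libraries. KRT8, KRT18 and CDH1 were below both controls in both libraries labelled KIF26B siRNA, as were 27.8% of all genes tested. Their log2 differences were -0.43 (SE 0.11), -0.51 (SE 0.11) and -0.33 (SE 0.13), of which the first pair passed the unadjusted threshold. KRT19, the most abundant marker, was above both controls in both (0.14, SE 0.11), as were 24.9% of all genes tested. EPCAM (0.08) and CDX2 (-0.10) were in neither class. The summed level of the epithelial markers was 1681 to 1696 FPKM in the controls and 1564 to 1590.3 FPKM in the libraries labelled KIF26B siRNA, and that of the other markers 7.18 to 7.67 and 5.09 to 9.03 FPKM. Recovered reads totalled 18709653 to 24227672 per library, and mitochondrial genes took 7.0%, 7.01%, 9.83% and 7.90% of them, in the order control replicates 1 and 2 and labelled KIF26B siRNA replicates 1 and 2. In the last of these the total of 18709653 exceeded the depth of 18068934 implied by its FPKM values. In the others the total lay below that depth. The reason was not tested, so totals and shares are approximate.

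MYC mRNA was higher in both libraries labelled KIF26B siRNA. Its level was 78.5 and 78.5 FPKM in the control libraries and 146 and 158 FPKM in the libraries labelled KIF26B siRNA replicates 1 and 2. The groups did not overlap, which by itself is common here. Of all genes tested, 24.9% lay above both controls in both of these libraries and 27.8% below both. For MYC the gap between the groups was many times that within either. The log2 difference was 0.94 (SE 0.11), a 1.94-fold higher mean, with an unadjusted p below 0.05. Its limma adjusted p of 0.242 was the smallest of any gene tested, a value shared with NOLC1, RRP12 and other genes. In such bulk RNA, more MYC mRNA per cell and a larger share of cells with high MYC cannot be told apart.

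The comparison between the siRNA groups over all members asked which genes of the machinery differed beyond the spread of the libraries. At an unadjusted p below 0.05, 7 of the 44 tested members had the higher mean after KIF26B siRNA (15.9%, against 7.74% of all genes tested): MYC, NOLC1, RRP12, NOP16, TCOF1, DKC1 and NOB1. RRN3 alone was lower (2.27%, against 8.68% of all genes tested). No member also passed the cut-off of the study at a log2 difference beyond 1, in either direction, which 0.813% of all genes tested passed upwards and 0.606% downwards. The study used that cut-off with DESeq2, and here it was set on limma differences of log2(FPKM + 1), where NOLC1 came nearest at 0.98. By limma, 0 of the 44 members and 0 of all 14523 genes (0%) were called at an adjusted p below 0.05, against 2385 genes at an unadjusted p below 0.05. The median log2 difference of the 44 members was 0.04, against -0.01 over all genes tested. Leaving out 1 library leaves a lone library that the fit assumes to vary like the other group, so only differences are given for such fits. The median of the members was 0.03 and 0.07 without control replicates 1 and 2. It was -0.12 and 0.24 without the libraries labelled KIF26B siRNA replicates 1 and 2, where all genes tested had -0.0039 and -0.02.

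**Figure D3:**
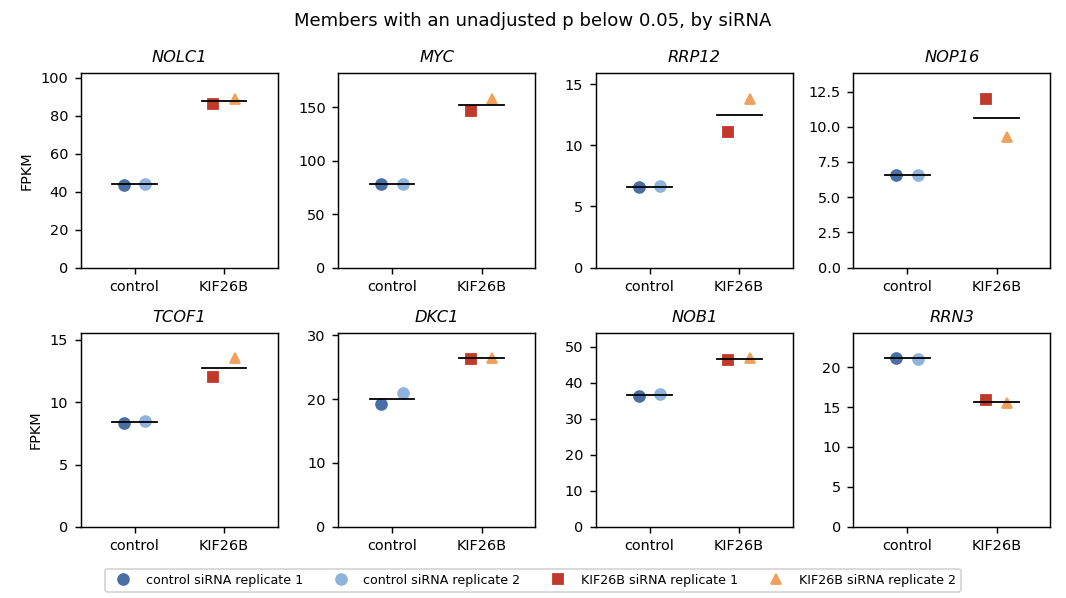
FPKM of the 8 members with an unadjusted p below 0.05, 1 panel per gene with its own axis from 0, in the control siRNA libraries (circles) and the libraries labelled KIF26B siRNA (square, replicate 1; triangle, replicate 2). Black lines are group means of 2 libraries. The groups do not overlap in any panel, which is largely set by choosing the genes at this threshold. RRN3 is the one gene with the lower mean after KIF26B siRNA.

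Among the abundant nucleolar proteins, NOLC1 stood out. NOLC1 encodes Nopp140, a phosphoprotein that chaperones snoRNPs and binds RNA polymerase I. It was measured at 43.6 and 44.2 FPKM in the control libraries and at 86.4 and 89.1 FPKM in the libraries labelled KIF26B siRNA. Both of the latter were about the same distance above both controls, with a log2 difference of 0.98 (SE 0.11, limma adjusted p = 0.242), the largest of the members tested. NPM1 was at 315 and 329 FPKM in the controls and at 299.8 and 286 FPKM after KIF26B siRNA, a log2 difference of -0.14 (SE 0.11, adjusted p = 0.579) that did not pass the test. The annotation lists 49 NPM1 pseudogenes among the genes of the files, together at up to 54.3 FPKM in a library, so its reads may be split with them. NCL, which binds nascent pre-rRNA, had the lowest log2 difference of its group, -0.19 (SE 0.16, adjusted p = 0.601). Its values were 137 and 135 FPKM in the controls and 134 and 106 FPKM in the labelled KIF26B siRNA replicates 1 and 2, so 1 of the latter libraries carried the difference. GNL3 (nucleostemin, a GTPase of the nucleolus) was nearly level at 50.5, 51.2, 53.1 and 51.7 FPKM in the same order of libraries. MYBBP1A and LYAR made up the rest of this group, with log2 differences of 0.01 and -0.19.

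In the snoRNPs, the box H/ACA and box C/D particles can be set side by side. The H/ACA particle converts uridines of rRNA to pseudouridine, and its catalytic subunit is dyskerin, encoded by DKC1. DKC1 was at 19.2 and 21.0 FPKM in the control libraries and at 26.4 and 26.5 FPKM in the libraries labelled KIF26B siRNA, without overlap, at a log2 difference of 0.38 (SE 0.12, adjusted p = 0.274). NOP10, a small subunit of the same particle, was at 92.3 and 97.6 FPKM in the controls and at 113 and 109.8 FPKM after KIF26B siRNA. Its groups did not overlap either, a pattern that 24.9% of all genes tested showed in this direction. Its log2 difference of 0.23 (SE 0.11, adjusted p = 0.394) missed the unadjusted threshold. The other subunits, NHP2 and GAR1, differed by 0.04 each on the log2 scale. The C/D particle methylates the ribose of rRNA, and none of its 3 core genes passed the test. FBL, the methyltransferase fibrillarin, was at 111 and 116 FPKM in the controls and 114 and 114 FPKM after KIF26B siRNA (log2 difference 0.0046, SE 0.11, adjusted p = 0.987). NOP58, a scaffold of the C/D particle, was at 38.9 and 37.9 FPKM in the controls and at 36.5 and 26.9 FPKM in the labelled KIF26B siRNA replicates 1 and 2, a log2 difference of -0.29 (SE 0.19, adjusted p = 0.494). NOP56, its partner, differed by -0.03. Whether the H/ACA genes differ from the C/D genes in their response was not tested.

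RNA polymerase I genes held both a higher and a lower call. TCOF1 encodes treacle, which works with the upstream factor UBTF at the rRNA gene repeats. It was at 8.32 and 8.49 FPKM in the controls and at 12 and 13.6 FPKM in the libraries labelled KIF26B siRNA, a log2 difference of 0.55 (SE 0.12, adjusted p = 0.244). RRN3 encodes TIF-IA, the initiation factor that makes RNA polymerase I competent to start. It was at 21.1 and 21.0 FPKM in the controls and at 15.9 and 15.4 FPKM after KIF26B siRNA. Both libraries labelled KIF26B siRNA were below both controls (as in 27.8% of all genes tested) by a similar amount. The log2 difference was -0.41 (SE 0.11, adjusted p = 0.258). The annotation lists 4 RRN3 pseudogenes among the genes of the files, which together reached 3.53 FPKM at most, so reads of RRN3 may be shared with them. DDX21, an RNA helicase that is the most abundant of this group, was at 49.9 and 49.7 FPKM in the controls and at 54.2 and 47.0 FPKM after KIF26B siRNA. None of the enzyme's subunits among the members gave a call, while POLR1D, counted with the other ribosome assembly genes below, did (log2 difference 0.35, SE 0.11). POLR1B and POLR1C lay above both controls in both libraries labelled KIF26B siRNA with log2 differences of 0.46 and 0.26, and POLR1A and POLR1E differed by 0.10 and -0.19. UBTF differed by 0.15.

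Of the 14 small subunit assembly factors, RRP12 and NOB1 were higher at an unadjusted p below 0.05 and none was lower. RRP12 is a factor for the export and maturation of the subunits. It was at 6.59 and 6.64 FPKM in the controls and at 11.1 and 13.8 FPKM in the labelled KIF26B siRNA replicates 1 and 2, a log2 difference of 0.81 (SE 0.15, adjusted p = 0.242). NOB1 is the nuclease that makes the final cut at the 3' end of 18S rRNA. It was at 36.4 and 36.9 FPKM in the controls and at 46.3 and 46.9 FPKM after KIF26B siRNA, and so was higher in both libraries at a log2 difference of 0.34 (SE 0.11, adjusted p = 0.282). In the annotation 20.4% of the exon bases of NOB1 overlap NQO1-DT, and whether the counting used the strand is not given in the sources used here. UTP4, a subunit of the early t-UTP complex, had the lowest log2 difference of the group, -0.18 (SE 0.27, adjusted p = 0.763). The 4 values of UTP4 were 20.4 and 21.1 FPKM in the controls and 23.5 and 14.0 FPKM in the labelled KIF26B siRNA replicates 1 and 2, on opposite sides of the controls. The remaining 11 factors lay between -0.17 and 0.15 on the log2 scale.

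Among the 8 tested large subunit assembly factors, NOP16 gave the single call. NOP16, a factor of the early pre-60S particle that is known as a MYC target, was at 6.59 and 6.6 FPKM in the controls and at 12 and 9.26 FPKM in the labelled KIF26B siRNA replicates 1 and 2. The groups did not overlap (as in 24.9% of all genes tested in this direction), with a log2 difference of 0.61 (SE 0.16, adjusted p = 0.258). In the annotation 18.6% of its exon bases overlap ARL10 or HIGD2A. PES1, which forms the PeBoW complex with BOP1 and WDR12, was the most abundant at 28.1 and 29.1 FPKM in the controls and 39.4 and 29.4 FPKM after KIF26B siRNA. Its log2 difference of 0.24 (SE 0.18, adjusted p = 0.545) rested on the library labelled KIF26B siRNA replicate 1. DDX18, an RNA helicase, was at 19.3 and 20.0 FPKM in the controls and at 17.9 and 13.8 FPKM after KIF26B siRNA, a log2 difference of -0.30 (SE 0.16, adjusted p = 0.426). PPAN was at 3.23 to 3.99 FPKM in all libraries, and 49.2% of its exon bases are shared with PPAN-P2RY11 and P2RY11 in the annotation.

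Many members lay on opposite sides of the controls in the 2 libraries labelled KIF26B siRNA. In the one labelled replicate 1, 36 of the 44 members were above both controls (41.1% of all genes tested were), and in the one labelled replicate 2, 28 of the 44 were below both (44.8% of all genes tested). In 21 of the 44 (47.7%) the same gene was above both controls in the first and below both in the second, a pattern held by 12.3% of all genes tested. The opposite pattern was seen in 0 of the 44 and in 14.0% of all genes tested. The median log2 difference of the members from the control mean was 0.24 in the library labelled KIF26B siRNA replicate 1 and -0.12 in the one labelled replicate 2, where all genes tested had medians of -0.02 and -0.0046. The library labelled KIF26B siRNA replicate 1 had the highest share of mitochondrial reads (9.83%, given above), and the part of that in these values was not tested.

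**Figure D4:**
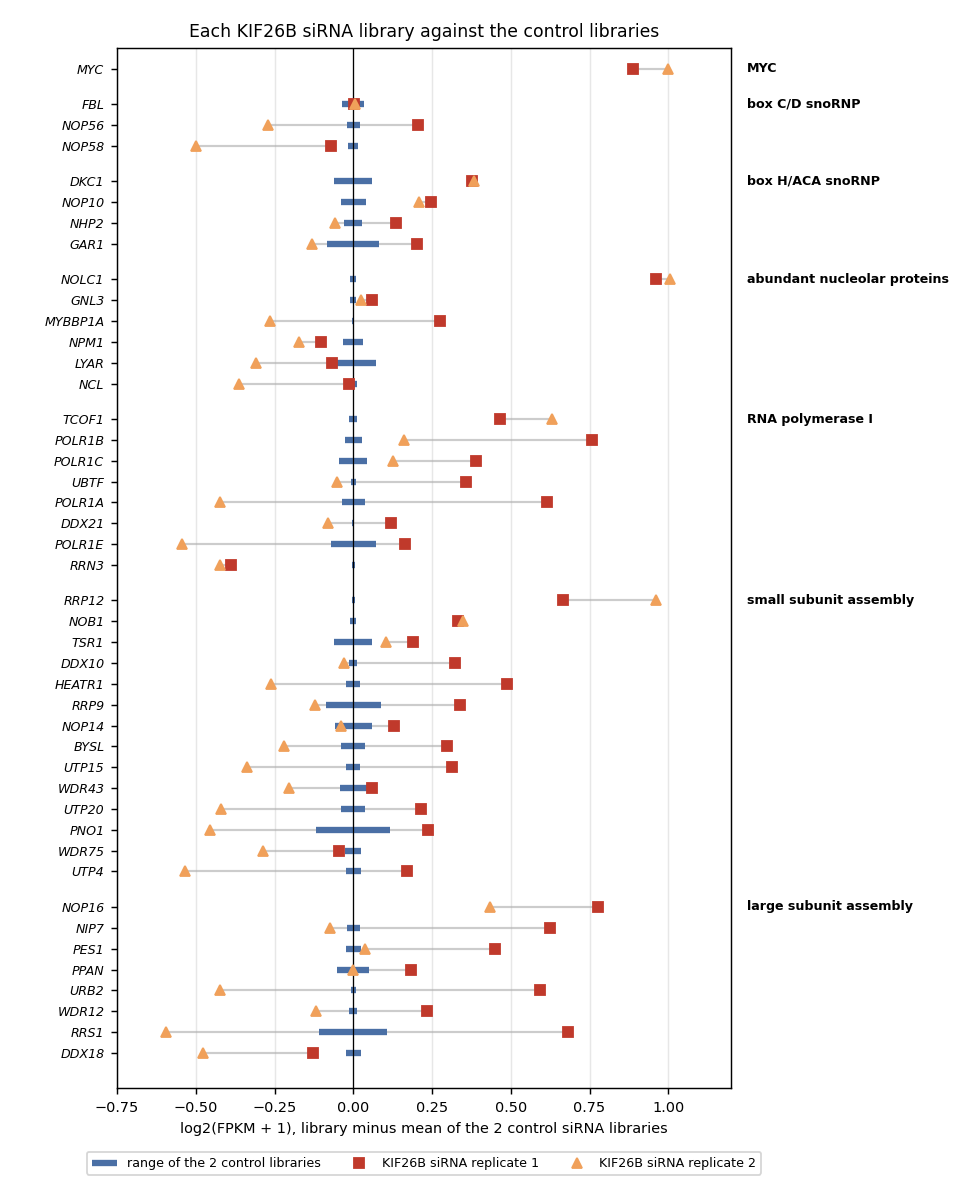
Difference of each library labelled KIF26B siRNA from the mean of the control libraries, on the log2(FPKM + 1) scale, for the 44 tested members by role; squares are replicate 1, triangles replicate 2, and blue bars span the control libraries. In MYC, NOLC1, RRP12, TCOF1, DKC1, NOB1 and NOP16 both symbols lie to the right and in RRN3 both lie to the left, whereas in 21 genes the square lies right and the triangle left of the control bar.

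This split was widest in RRS1, URB2 and POLR1A, which are named here because of it. RRS1, which loads the 5S particle into the pre-60S subunit, was at 16.5 and 19.4 FPKM in the controls and at 29.3 and 11.5 FPKM in the labelled KIF26B siRNA replicates 1 and 2, a 2.54-fold gap between the latter. URB2, a large subunit assembly factor, was at 3.97 and 3.92 FPKM in the controls and at 6.46 and 2.69 FPKM in the same order. POLR1A, the largest subunit of RNA polymerase I, was at 8.47 and 8.0 FPKM in the controls and at 13.1 and 5.90 FPKM in the same order. In all 3 the controls were close to each other while the libraries labelled KIF26B siRNA lay far above and far below them, so that a mean over the group describes neither. By role, the split was found in 9 of 14 small subunit factors, 4 of 8 large subunit factors, 4 of 8 RNA polymerase I genes, 2 of 4 H/ACA genes, 1 of 3 C/D genes and 1 of 6 abundant nucleolar proteins. The distance between the libraries labelled KIF26B siRNA exceeded that between the controls in 39 of the 44 members, as in 79.4% of all genes tested, with a median of 0.34 against 0.05 on the log2 scale in the members and of 0.28 against 0.07 over all genes tested.

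In contrast, 13 members were above both controls in both libraries labelled KIF26B siRNA (29.5%, against 24.9% of all genes tested). These were the 7 called members and NOP10, GNL3, POLR1B, POLR1C, TSR1 and PES1. A further 6 were below both controls in both (13.6%, against 27.8% of all genes tested), namely RRN3, NOP58, NCL, NPM1, WDR75 and DDX18. The remaining 4, FBL, LYAR, NOP14 and PPAN, fell into none of these classes.

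**Figure D5:**
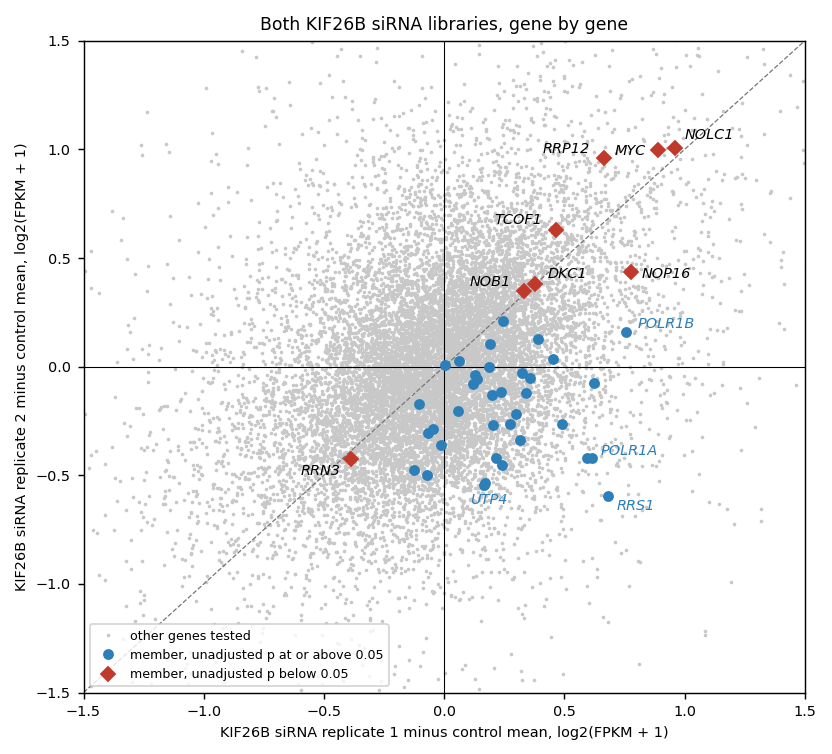
Difference from the control mean on the log2(FPKM + 1) scale in the library labelled KIF26B siRNA replicate 1 (x axis) and replicate 2 (y axis), for the 44 members (red diamonds, unadjusted p below 0.05; blue circles, others) over all genes tested (grey; 226 genes lie outside the axes). The called members have both differences of the same sign, which follows from calling them on these same libraries. Most others lie right of the vertical line and below the horizontal one.

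Some members host snoRNA genes. At least 1 annotated snoRNA gene lay within 9 of the 44 tested members on the same strand (20.5%, 25 snoRNA genes in all), against 2.68% of the 11205 protein-coding genes tested. GNL3 held 5 of them and NOP58 held 4, and NOP56, NCL, WDR43, DKC1, TSR1, PPAN and POLR1C held 1 to 3 each. DKC1 was the one called gene among these hosts.

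Presence of the E-box and the difference after KIF26B siRNA can be set side by side. The 15 tested members with CACGTG in a window had a median log2 difference of 0.02, from -0.19 to 0.24, and none passed the unadjusted threshold. The 20 with a window but no such motif had a median of 0.10, from -0.41 to 0.61, and 4 of them passed. The 9 without a window had a median of 0.08, from -0.30 to 0.98, and 4 of them (MYC, NOLC1, RRP12 and TCOF1) passed. Over all genes tested, 2385 of 14523 passed in either direction. These medians and counts are descriptions, and no difference between them was tested.

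Outside the members, a list of 104 other ribosome assembly genes, all of them tested, held 8 that were higher and 2 that were lower at an unadjusted p below 0.05 (7.69% and 1.92%, against the 7.74% and 8.68% of all genes tested). The largest differences among those called were in NIFK, which binds the Ki-67 antigen, at 11.1 and 11.7 FPKM in the controls and 18.4 and 15.5 FPKM after KIF26B siRNA (log2 difference 0.53, SE 0.14), and in MPHOSPH10, a U3 snoRNP protein (0.47, SE 0.11). NOC4L, a small subunit factor, was lower by -0.45 (SE 0.16) and WDR74, a large subunit factor, was higher by 0.44 (SE 0.15). The median of this list was 0.05, with 0.13 in the library labelled KIF26B siRNA replicate 1 and -0.04 in the one labelled replicate 2. The split described above was found in 30 of the 104 (28.8%, against 12.3% of all genes tested). The opposite pattern was found in 6 of them, and in 14.0% of all genes tested.

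Of 33 tested MYC targets outside ribosome assembly, 1 was higher and 3 were lower at an unadjusted p below 0.05 (3.03% and 9.09%, against the same 7.74% and 8.68% of all genes tested), so the share of lower calls was near that of all genes. HSPD1, the mitochondrial chaperonin, was at 162 and 155 FPKM in the controls and at 249 and 226 FPKM after KIF26B siRNA (log2 difference 0.58, SE 0.12, adjusted p = 0.242). MCM4, a subunit of the replicative helicase, was at 38.6 and 38.5 FPKM in the controls and at 22.8 and 22.2 FPKM after KIF26B siRNA (-0.75, SE 0.11, adjusted p = 0.242). CCNB1, the mitotic cyclin B1, was lower by -0.63 (SE 0.12) and TFRC, the transferrin receptor, by -0.55 (SE 0.11). The median of this list was 0.01. The split described above was found in 9 of these 33 genes (27.3%, against 12.3% of all genes tested). The opposite pattern was found in 7 of them, and in 14.0% of all genes tested.

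Of 16 tested factors of the MYC network, 2 were higher and none was lower (12.5% and 0%, against 7.74% and 8.68% of all genes tested), shares that rest on very few genes. MXD4, a MAX partner that represses E-box genes, was at 6.49 and 6.35 FPKM in the controls and at 9.37 and 9.43 FPKM in the libraries labelled KIF26B siRNA, both above both controls (log2 difference 0.49, SE 0.11, adjusted p = 0.243). PVT1, a noncoding RNA whose gene neighbours MYC, was at 5.69 and 5.77 FPKM in the controls and at 9.13 and 7.56 FPKM after KIF26B siRNA (0.47, SE 0.14, adjusted p = 0.272). MAX itself differed by 0.18 (SE 0.13, adjusted p = 0.525), and MYCN was at or near 0 in all libraries. The median of this list was 0.01, with 0.07 in the library labelled KIF26B siRNA replicate 1 and 0.14 in the one labelled replicate 2. The split described above was found in 2 of the 16 and the opposite pattern in 5.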

How the data were processed

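Poly(A) RNA-seq of HCT116 cells was analysed in 4 libraries, 2 per siRNA, grouped by their labels. The authors deposited FPKM, 1 value per gene and library. The submitters' processing notes name HISAT2 2.0.5, featureCounts 1.5.0-p3 and hg38, while the paper's methods name hg19. The files hold gene identifiers without coordinates, so coordinates are given only for RefSeq promoters. Symbols came from GENCODE (56513 of 58735 identifiers matched). Whole reads were recovered from the steps between FPKM values for 34635 of 34638 genes above 0, with a tolerance of 0.01 reads.

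Genes whose mean reached 1 FPKM were compared with limma 3.58.1 (R 4.3.3) on log2(FPKM + 1), without covariates, with Benjamini-Hochberg adjustment over all 14523 genes tested. KIF26B lay under this filter and was taken from separate fits without it. A pseudocount of 1 understates changes of low genes. The fit had 2 residual and 2 prior degrees of freedom and was tested on simulated data in which all libraries varied alike. Here the libraries labelled KIF26B siRNA lay farther apart than the controls, so that test does not cover this setting. The members and gene lists were chosen with earlier results of these data known. Given in full were MYC, members with an unadjusted p below 0.05 and, per role, the most abundant member and those with the highest and lowest difference; of the other lists, up to 4 genes past that threshold. Promoters were taken from RefSeq (GRCh38.p14) by symbol. Alternatives were the replicate block, other filters, a pseudocount of 0.1, median-of-ratios scaling, a variance trend, limma-voom on the recovered reads, and leaving out each library. No p was adjusted over a list alone.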

Additional observations from a re-analysis of the deposited data

How the results depend on the processing

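With 2 libraries per group, no gene passed the adjusted threshold in limma with all libraries, and each tested member had at least 158 recovered reads in every library. MYC was higher under every alternative (0.89 to 1.0 on the log2 scale). Deviations of the libraries with the same replicate number had a correlation of -0.0031 over the genes tested. This cannot tell whether the libraries were paired, since those labelled KIF26B siRNA lay farther apart than the controls. In the fit with a replicate block, the higher members numbered 5 and the lower 0, the other ribosome assembly genes 2 and 0, and the MYC network factors called higher 1, while MYC targets kept 1 and 3. Without a filter on low values, NOP2 joined RRN3 so that 2 members were lower, and 5 other ribosome assembly genes were lower. That last count was 1 with a pseudocount of 0.1 and 1 with median-of-ratios scaling. The MYC targets called higher were 2 with the variance trend and 2 with limma-voom on recovered reads, where 1 MYC network factor was lower. What causes these shifts was not tested.

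Leaving out 1 library, the members called lower ran from 0 to 15 and those called higher from 3 to 21. Members higher at the thresholds of the study ran from 0 to 1, and members at the adjusted threshold from 0 to 6, the 6 (MYC, NOLC1, NOP58, RRP12, TCOF1 and UTP4) without the library labelled KIF26B siRNA replicate 1, where 2254 of all genes passed. Other ribosome assembly genes ran from 0 to 31 lower and from 0 to 36 higher, MYC targets from 1 to 9 lower and from 0 to 8 higher, and MYC network factors from 0 to 4 lower and from 0 to 6 higher. The median of the members ran from -0.12 without the library labelled KIF26B siRNA replicate 1 to 0.24 without the one labelled replicate 2. Among the members named by rule, the log2 difference changed sign in FBL (-0.0302 and 0.0394 without control replicates 1 and 2), and in DDX21 (-0.0816 and 0.1194) and UTP4 (-0.5333 and 0.1694) without the libraries labelled KIF26B siRNA replicates 1 and 2. By their definition, the 21 split members, DDX21 and UTP4 among them, all differ in sign between these exclusions. Of the named members' other values without a library left out, 108 kept their direction and side of the threshold, 3 (DKC1, RRN3 and NOB1 under the block) fell short of it and 1 (NOP10 without a filter) newly passed it.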
